A study of Homo sapiens with 4 samples.

Results

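The genes described here were 50 genes of mitosis and the spindle checkpoint, listed by symbol for what their products do. No measured value enters the list itself, but it was drawn up with earlier results of these data known. All 50 were read on the arrays, out of 19775 genes in all. They comprised the checkpoint components, the mitotic kinases, CDK1 with its cyclins and phosphatases, the regulators of anaphase, motor proteins, kinetochore proteins, and proteins of spindle assembly, cytokinesis and chromosome structure. Expression was measured on 4 Affymetrix arrays, 1 for each of 4 modified human colorectal cancer cell lines. HCT116, a colorectal carcinoma line, was measured as HCT116-CDX1 and HCT116-Vec. LS174T, a mucin-producing colon adenocarcinoma line, was measured as LS174T-siCDX1 and LS174T-siVec. The names were read as introduced CDX1 against a vector control, and as CDX1 lowered by RNA interference against its vector control; the labels did not describe the constructs, the number of clones or the time after modification. CDX1 is a homeobox factor that controls transcription in gut epithelium, and by its title the series concerned control of the keratin gene KRT20 by CDX1.

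In mitosis, CDK1 bound to a B-type cyclin drives chromosome condensation and spindle assembly. The spindle checkpoint keeps CDC20 from activating the anaphase-promoting complex (APC/C), a ubiquitin ligase, until every kinetochore is attached to microtubules; the ligase then marks securin and cyclin B for destruction. Most of these genes are transcribed late in the cell cycle, through promoters with CCAAT boxes, which bind NF-Y, and the cell cycle genes homology region, a short element that binds MuvB complexes. The proliferative crypt cells of the intestine express them, and differentiated cells of the villus or surface do so far less.

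Values were RMA expression levels on the log2 scale, and a gene with several probe sets was read from the one with the highest mean over the 4 arrays. A gene was taken as measured where the brighter of 2 arrays was at 6 or more, and "fell" or "rose" stands for a 2-fold difference or more. All 50 genes were measured in each comparison. With 1 array per group no difference has a replicate check, no p-value was computed for 2 arrays, and precision is limited by how few arrays there were. As a technical yardstick, 18 hybridisation control probe sets differed with a standard deviation of 0.12 in the HCT116 pair, 0.07 in the LS174T pair and 0.10 between the vector arrays. The 50 genes had 104 probe sets in all, and 28 of the genes had more than 1. The level of CDX1 was 8.24 on the array labelled HCT116-CDX1, against 8.21 on HCT116-Vec, so its probe set showed no raised CDX1 and directions in that pair rest on the label. It was 9.06 on LS174T-siCDX1, against 10.46 on LS174T-siVec. KRT20, the gene named in the title, was at 9.38 on the array labelled HCT116-CDX1 against 6.36 on HCT116-Vec, and at 5.45 on LS174T-siCDX1 against 8.15 on LS174T-siVec, in both pairs higher on the array with more CDX1 by label. Bulk RNA cannot tell apart fewer cells in mitosis from less RNA per cell.

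Mitosis genes were lower on the array labelled HCT116-CDX1. Across the 50 genes the median level was 10.29 there, against 10.84 on HCT116-Vec. The median difference was -0.49 on the log2 scale, the interquartile range was -0.68 to -0.27, and 47 of 50 lay below 0. Over all 16914 measured genes the median difference was -0.01 and 51.0% lay below 0. Among the 7463 measured genes whose mean level lay within the range of the mitosis genes, the median was -0.07 and 57.9% lay below 0. At 2-fold, 3 mitosis genes fell and 0 rose, while 0.970% of all measured genes fell and 0.916% rose. At 1.5-fold, 18 were lower and 0 higher, against 6.11% lower and 3.37% higher of all measured genes. Of the genes in the level range of the mitosis genes, 9.96% were lower at 1.5-fold.

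**Figure D1:**
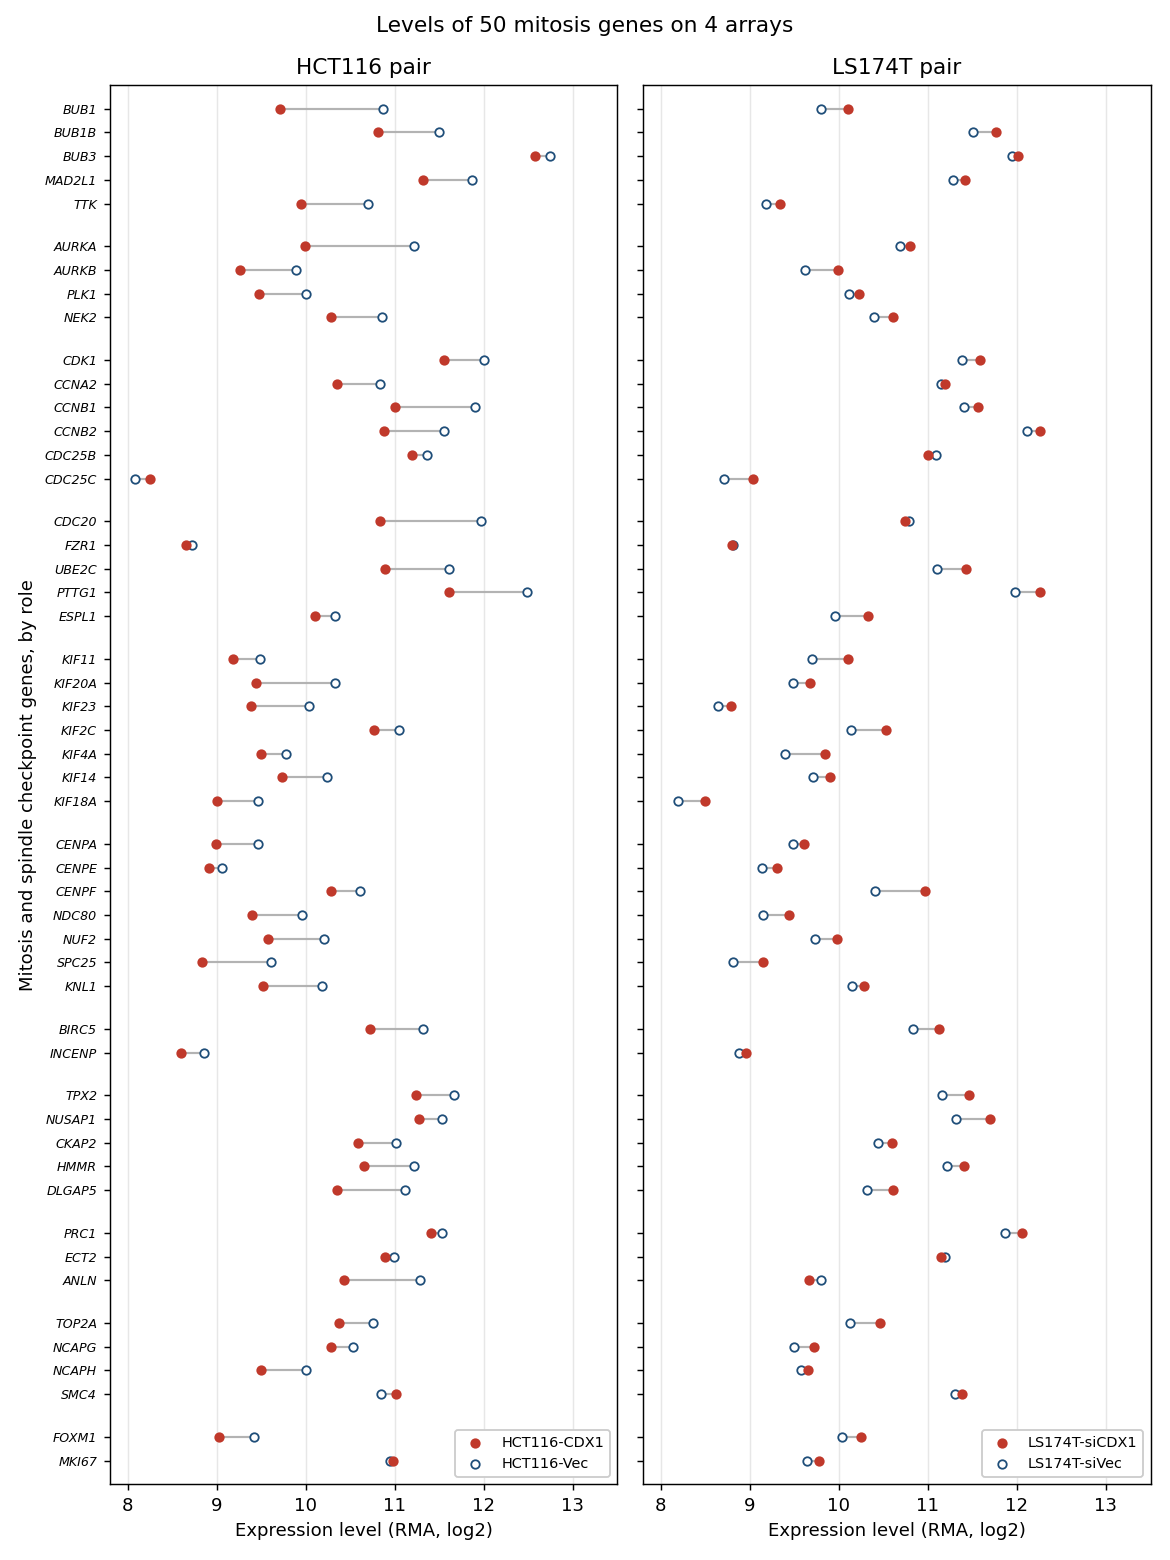
Levels of the 50 genes (rows, grouped by role) on the log2 RMA scale, with the HCT116 pair on the left and the LS174T pair on the right; each point is 1 array and there are no error bars because each group had 1 array. On the left 47 of 50 filled points (HCT116-CDX1) lie below their open points (HCT116-Vec), and on the right 45 of 50 filled points (LS174T-siCDX1) lie above their open points (LS174T-siVec).

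The spindle checkpoint genes included 1 that fell. BUB1, a kinase that recruits checkpoint proteins to kinetochores, was at 9.71 on the array labelled HCT116-CDX1, against 10.87 on HCT116-Vec, and fell by 1.16, or 2.24-fold. TTK, the kinase MPS1 that starts checkpoint signalling, was at 9.95 against 10.70, a difference of -0.75. BUB1B, which encodes the checkpoint protein BUBR1, differed by -0.68 and MAD2L1, which encodes MAD2, by -0.54. BUB3, the partner of both BUB1 and BUBR1, was at 12.58 against 12.75, the smallest difference of the 5, and was at 0.09 when read without probe sets shared between transcripts. Its other shared probe sets were at 0.08, 0.15 and -0.15. In the probe sets used all 5 genes were thus lower, with a median of -0.68, and the direction of BUB3 depended on the probe set.

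Among the mitotic kinases AURKA fell. Its product, Aurora A, matures centrosomes and the spindle; the level was 9.99 on the array labelled HCT116-CDX1, against 11.21 on HCT116-Vec, a fall of 1.22 or 2.33-fold. AURKB, the kinase of the chromosomal passenger complex, differed by -0.64, NEK2, a centrosome kinase, by -0.57, and PLK1, the Polo-like kinase, by -0.53. The passenger complex members BIRC5, which encodes survivin, and INCENP, the scaffold of that complex, differed by -0.59 and -0.26. Of these 6 kinase and passenger genes, all were lower and 1 passed 2-fold.

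CDK1, the central mitotic kinase gene, and its cyclins were lower by less than 2-fold, and the CDC25 phosphatase genes differed least. CCNB1, the gene of cyclin B1, was at 11.00 on the array labelled HCT116-CDX1, against 11.90 on HCT116-Vec, a difference of -0.90. CCNB2, CCNA2 and CDK1 differed by -0.68, -0.48 and -0.45. CDC25B was at -0.17, and CDC25C, whose product activates CDK1 at mitotic entry, was higher, with 8.25 against 8.09. Both other probe sets of CDC25C were higher too, at 0.05 and 0.37.

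CDC20 fell, and the anaphase genes PTTG1, UBE2C and ESPL1 were lower. CDC20, the activator of the APC/C that the checkpoint restrains, was at 10.84 on the array labelled HCT116-CDX1, against 11.97 on HCT116-Vec, a fall of 1.12 or 2.18-fold. PTTG1, which encodes securin, was at 11.61 against 12.49, a difference of -0.87, and UBE2C, the ubiquitin-conjugating enzyme that works with the ligase, differed by -0.72. ESPL1, the gene of the protease separase, differed by -0.22. FZR1 encodes CDH1, the activator that takes over from CDC20 late in mitosis and in G1. The level of FZR1 was 8.66 against 8.73, a difference of -0.07, inside the standard deviation of the control probe sets. Its probe sets not marked as shared were higher, at 0.24 and 0.17, and the mean of all 4 was 0.06. The 2 activators thus stood at opposite ends of this group.

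The kinesin and kinetochore genes were lower without exception. Of the 7 kinesin genes, KIF20A, needed for cytokinesis, showed the greatest difference, with 9.45 on the array labelled HCT116-CDX1 against 10.33 on HCT116-Vec. KIF23, a subunit of centralspindlin, differed by -0.65, KIF14 by -0.51 and KIF18A, which limits chromosome oscillation, by -0.47. KIF11, the motor that separates spindle poles, KIF4A, a chromokinesin, and KIF2C, a microtubule depolymerase, lay at -0.30, -0.28 and -0.28. Of the 7 kinetochore genes, SPC25 was at 8.84 against 9.61. Its partners in the NDC80 complex, which binds microtubules, lay close to it, with NUF2 at -0.63 and NDC80 at -0.56. KNL1, the scaffold for BUB proteins, was at -0.67 and CENPA, the centromeric histone, at -0.48. The genes of 2 large coiled-coil proteins of the outer kinetochore differed less, CENPF by -0.33 and the motor gene CENPE by -0.14. These 2, with KIF11, KIF4A and KIF2C, lay within 0.35, the largest size of difference among the control probe sets in this pair.

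Spindle assembly genes were lower together, while cytokinesis and chromosome genes were mixed in size. DLGAP5, a spindle protein gene, was at 10.35 on the array labelled HCT116-CDX1, against 11.12 on HCT116-Vec. HMMR differed by -0.56, CKAP2 by -0.44, TPX2, the activator of Aurora A, by -0.43 and NUSAP1 by -0.26. ANLN, which encodes the contractile ring protein anillin, was at 10.43 against 11.29, a difference of -0.86. The other 2 cytokinesis genes differed little, PRC1, a microtubule bundler of the midzone, by -0.13 and ECT2, an activator of RhoA, by -0.10, with the other sign for ECT2 under a loess correction. The condensin subunit genes NCAPH and NCAPG lay at -0.50 and -0.25 and TOP2A, the mitotic topoisomerase gene, at -0.38. SMC4, the ATPase subunit of condensin, was higher, at 11.01 against 10.85. FOXM1, a transcription factor of late cell cycle genes, differed by -0.39.

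MKI67, the gene of the proliferation marker Ki-67, did not share the shift in the probe set used. It was at 10.99 on the array labelled HCT116-CDX1, against 10.95 on HCT116-Vec, a difference of 0.04. Its other 3 probe sets differed by -0.20, -0.25 and -0.40, and the mean of all 4 by -0.20. SMC4 likewise was at 0.16 in the probe set used and at -0.01 as the mean of 3. Of all 104 probe sets of the mitosis genes, 96 were measured in this pair, and 83 of those lay below 0. Several probe sets were measured for 27 genes, and in 21 of these all had 1 sign.

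The 3 genes that fell differed in how far their probe sets supported it. AURKA had 3 probe sets, at -1.22, -1.07 and, on a dimmer one at 6.79 against 7.06, at -0.27. BUB1 had 5, at -1.16 and -0.74 on the brighter ones and -0.32, -0.25 and -0.17 on the others. Those others were dimmer, at 6.42, 7.36 and 4.53 on HCT116-Vec, and the last was under the floor of 6 on both arrays. The mean given next took in all 5. CDC20 had 1, which is marked as shared between transcripts. As the mean of probe sets AURKA was at -0.85, BUB1 at -0.53 and CDC20 at -1.12. CDC20 alone thus remained past 2-fold, with no other probe set to average. Without shared probe sets CDC20 could not be read, AURKA was at -0.27, and BUB1 alone passed 2-fold, at -1.16.

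Promoters are shown for the 3 mitosis genes with the largest falls or differences and the 3 with the highest differences in the HCT116 pair, among 42 with an entry in the RefSeq promoter table of build GRCh38.p14. No entry was matched for AURKA or 7 further genes. Each sequence is the 250 bases before the annotated start, 5′ to 3′ on the strand of the gene, and capitals mark TTTGAA, the core of the homology region, and CCAAT, each searched on both strands (TTCAAA and ATTGG on the other strand).
BUB1 (chr2:110678064-110678313, minus strand): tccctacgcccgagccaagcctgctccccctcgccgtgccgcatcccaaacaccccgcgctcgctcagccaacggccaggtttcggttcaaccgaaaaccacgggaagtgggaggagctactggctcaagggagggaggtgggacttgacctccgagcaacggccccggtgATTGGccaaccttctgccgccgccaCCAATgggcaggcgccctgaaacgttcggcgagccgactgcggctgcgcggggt
CDC20 (chr1:43358731-43358980, plus strand): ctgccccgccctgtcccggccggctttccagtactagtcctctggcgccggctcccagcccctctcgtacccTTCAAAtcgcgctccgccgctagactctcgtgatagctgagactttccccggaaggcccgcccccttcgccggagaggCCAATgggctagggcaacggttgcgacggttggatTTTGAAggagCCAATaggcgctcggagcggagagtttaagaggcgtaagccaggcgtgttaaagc
CCNB1 (chr5:69166900-69167149, plus strand): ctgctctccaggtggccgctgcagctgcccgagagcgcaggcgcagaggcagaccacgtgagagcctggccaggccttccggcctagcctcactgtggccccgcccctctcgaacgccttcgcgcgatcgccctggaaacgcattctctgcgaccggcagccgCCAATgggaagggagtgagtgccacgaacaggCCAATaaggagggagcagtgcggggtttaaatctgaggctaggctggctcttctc
MKI67 (chr10:128126424-128126673, minus strand): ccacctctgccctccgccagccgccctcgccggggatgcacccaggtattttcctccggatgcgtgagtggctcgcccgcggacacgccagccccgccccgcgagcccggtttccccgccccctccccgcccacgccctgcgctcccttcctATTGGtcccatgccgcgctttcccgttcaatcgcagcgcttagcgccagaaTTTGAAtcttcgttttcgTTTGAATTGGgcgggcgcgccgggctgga
SMC4 (chr3:160399400-160399649, plus strand): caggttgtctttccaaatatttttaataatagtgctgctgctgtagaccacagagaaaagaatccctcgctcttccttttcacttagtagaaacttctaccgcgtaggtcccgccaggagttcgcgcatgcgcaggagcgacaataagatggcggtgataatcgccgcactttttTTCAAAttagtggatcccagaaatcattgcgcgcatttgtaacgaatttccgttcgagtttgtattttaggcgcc
CDC25C (chr5:138338356-138338605, minus strand): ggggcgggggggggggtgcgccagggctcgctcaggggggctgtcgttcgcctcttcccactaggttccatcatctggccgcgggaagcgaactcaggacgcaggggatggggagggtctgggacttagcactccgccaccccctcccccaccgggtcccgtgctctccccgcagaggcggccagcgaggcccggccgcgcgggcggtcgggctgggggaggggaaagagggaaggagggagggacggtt
CDC20 held 2 CCAAT boxes, 100 and 55 bases before the start, with a TTTGAA at 65 and another on the other strand at 178. BUB1 and CCNB1 each held 2 CCAAT boxes and no TTTGAA in this window. MKI67 held 2 TTTGAA, at 47 and 29, and 2 CCAAT on the other strand, 1 of which overlaps the second TTTGAA by 1 base. SMC4 held 1 TTTGAA on the other strand, and CDC25C held neither in this window. Bases after the annotated start or further upstream were not searched, so a motif missing here may lie outside the window.

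Both motifs were common among the mitosis genes. TTTGAA occurred in 23 of 42 windows (54.8%), against 13.6% of all 27305 windows in the table, and CCAAT in 30 of 42 (71.4%), against 33.0%. Both were present in 18 of 42 (42.9%), against 4.85% of all. In the HCT116 pair the 30 genes with CCAAT had a median difference of -0.51 and the 12 without it -0.26, whereas the 23 genes with TTTGAA had a median of -0.45 and the 19 without it -0.51. In the LS174T pair the medians were 0.19 with CCAAT and 0.19 without it, and 0.19 with TTTGAA and 0.22 without it. These are descriptions of letters in a window and were not tested.

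Mitosis genes were higher by a small margin on LS174T-siCDX1. The median level was 10.40 there, against 10.13 on LS174T-siVec. The median difference was 0.19, the interquartile range was 0.12 to 0.30, and 45 of 50 genes lay above 0. Over all 16896 measured genes the median difference was -0.01 and 48.8% lay above 0, and over the 7465 genes in the level range of the mitosis genes these were -0.04 and 41.5%. At 2-fold 0 of 50 rose and 0 fell, while 0.598% of all measured genes rose and 1.25% fell. At 1.5-fold the count was again 0 in both directions, against 1.72% higher and 3.24% lower of all measured genes. The shift was thus one of many genes by a small amount. Its median of 0.19 was close to 0.17, the largest size of difference among the control probe sets in this pair.

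The greatest difference of the LS174T pair was in CENPF, at 10.97 on LS174T-siCDX1 against 10.41 on LS174T-siVec, a difference of 0.56 or 1.48-fold. Its second measured probe set was at 0.28. Among the kinesins all 7 were higher, with KIF4A at 9.84 against 9.40, KIF11 at 10.10 against 9.70, KIF2C at 10.52 against 10.13 and KIF18A at 8.49 against 8.19. All 7 kinetochore genes were higher as well, SPC25 by 0.35, NDC80 by 0.29, NUF2 by 0.25, CENPE by 0.17, KNL1 by 0.13 and CENPA by 0.12 beside CENPF. The kinesin genes had a median of 0.30 and the kinetochore genes of 0.25.

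Checkpoint and kinase genes were higher by less. BUB1 was at 10.10 on LS174T-siCDX1, against 9.80 on LS174T-siVec, BUB1B differed by 0.26 and BUB3 by 0.06, and the 5 checkpoint genes had a median of 0.16. AURKB was at 9.99 against 9.62, while AURKA differed by 0.11 and PLK1 by 0.11. Spindle assembly genes ran from 0.15 for CKAP2 to 0.38 for NUSAP1. ESPL1, UBE2C and PTTG1 were higher by 0.38, 0.33 and 0.28, TOP2A by 0.34, BIRC5 by 0.29, CDC25C by 0.32, FOXM1 by 0.21 and MKI67 by 0.13. CDK1 was higher by 0.21, and the cyclin genes CCNB1, CCNB2 and CCNA2 by 0.15, 0.14 and 0.05.

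The 5 genes below 0 in the LS174T pair were ANLN, at 9.66 on LS174T-siCDX1 against 9.80 on LS174T-siVec, CDC25B at -0.09, ECT2 at -0.05, CDC20 at -0.04 and FZR1 at -0.01. With quantile normalization of the arrays ANLN alone stayed below 0. ANLN and ECT2, among these 5, are cytokinesis genes. The mitosis genes as a whole had a median of 0.28 and 49 of 50 above 0 under that normalization.

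The HCT116 and LS174T pairs share no array and can be set side by side. A gene lower with introduced CDX1 by label and higher with reduced CDX1 would follow the label in both. This held for 42 of 50 mitosis genes (84.0%), against 23.2% of the 16530 genes measured in both pairs and 23.0% of those in the level range of the mitosis genes. The remaining genes were 5 lower in both and 3 higher in both. The sizes did not run together: across the 50 genes the Pearson correlation of the 2 differences was 0.03 and the Spearman correlation -0.02. These genes share their arrays and the late cell cycle programme, so the correlation is a description over genes. CDC20 and AURKA were among the lowest in the HCT116 pair and lay at -0.04 and 0.11 in the LS174T pair, while CENPF, the highest in the LS174T pair, was at -0.33 in the HCT116 pair.

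**Figure D2:**
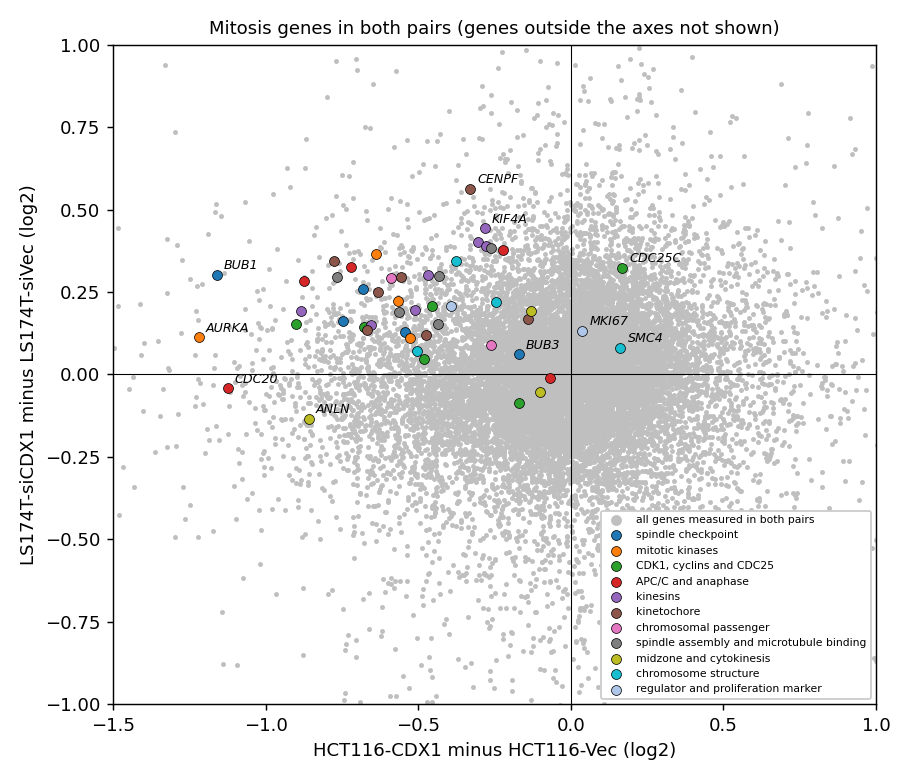
Difference of each gene within the HCT116 pair (horizontal axis) and within the LS174T pair (vertical axis), in log2 units; coloured points are the 50 mitosis genes by role, grey points all genes measured in both pairs (those beyond the axes are left out), and each difference is between 1 array and 1 array. Of the 50 coloured points 42 lie in the upper left part, and within it they form a cloud with no slope.

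A fit over all 4 arrays gave the only error that the design allows, and it is not one of replicates. That error measures how far the difference by CDX1 label disagreed between the HCT116 and LS174T pairs, with information shared across genes. A limma model with terms for cell line and CDX1 label left 1 residual degree of freedom, and the 2 arrays with higher CDX1 by label (HCT116-CDX1 and LS174T-siVec) were set against the 2 with lower CDX1 by label. The coefficient was below 0 for 49 of 50 mitosis genes, with a median of -0.36, against -0.01 over all 17280 genes fitted. After Benjamini-Hochberg adjustment over all of them limma called 0 mitosis genes and 0% of all genes in either direction, and every mitosis gene had an adjusted p of 0.999. At an unadjusted p under 0.05 there were 9 mitosis genes (18%) and 518 of all genes (3%). BUB1 had the coefficient greatest in size, -0.73 ± 0.25 (SE), with means of 9.75 on the arrays with higher CDX1 by label and 10.49 on those with lower CDX1, lower in both pairs, an unadjusted p of 0.0378 and a limma adjusted p of 0.999. AURKA followed at -0.67 ± 0.30 (SE), and SMC4, at 0.04 ± 0.16 (SE), was the gene above 0. The fit therefore left no mitosis gene past the threshold. With 1 residual degree of freedom it left no other gene past it either, so the absence of calls does not set the mitosis genes apart.

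Between the vector arrays the mitosis genes varied more, and most were lower in LS174T-siVec than in HCT116-Vec. The median difference was -0.49 and the interquartile range -0.80 to 0.01, with 36 of 50 below 0. Over all 17043 measured genes the median was 0.01 and 49.2% lay below 0. At 2-fold, 8 mitosis genes were lower and 0 higher, while 7.33% of all measured genes were lower and 6.03% higher. At 1.5-fold the counts were 16 lower and 2 higher, against 14.3% and 12.2% of all measured genes. Of the genes in the level range of the mitosis genes, 17.9% were lower at 1.5-fold and 51.1% lay below 0. The standard deviation over the 50 genes was 0.55 here, 0.31 in the HCT116 pair and 0.14 in the LS174T pair.

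The 8 genes past 2-fold came from 6 of the 11 role groups. TTK was at 9.18 on LS174T-siVec, against 10.70 on HCT116-Vec, a fall of 1.52 or 2.86-fold. ANLN was at 9.80 against 11.29, KIF23 at 8.64 against 10.04, MKI67 at 9.64 against 10.95 and KIF18A at 8.19 against 9.47. CDC20 was at 10.78 against 11.97, BUB1 at 9.80 against 10.87 and NCAPG, a condensin subunit gene, at 9.50 against 10.54. The 4 probe sets of MKI67 were all lower, at -1.31, -1.64, -1.11 and -0.85. As means of probe sets KIF23 was at -0.64, BUB1 at -0.49 and NCAPG at -0.98, which left 5 of the 8 past 2-fold. The means of KIF23 and BUB1 took in probe sets under 6 on both arrays. That of KIF23 was at 5.40 on LS174T-siVec against 5.28 on HCT116-Vec, and that of BUB1 at 4.33 against 4.53.

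Of the 14 genes higher in LS174T-siVec, CDC25C and FOXM1 passed 1.5-fold. CDC25C was at 8.71 on LS174T-siVec, against 8.09 on HCT116-Vec, although its probe set without the shared mark differed by -0.12. FOXM1 was at 10.03 against 9.42 and CCNB2 at 12.11 against 11.55. SMC4 differed by 0.45, PRC1 by 0.33, CCNA2 by 0.31, KIF11 by 0.21 and ECT2 by 0.20. Partners in 1 complex could stand apart: SMC4 was at 0.45 beside NCAPH at -0.42 and NCAPG at -1.03, and PRC1 at 0.33 beside KIF4A, the motor that it recruits to the midzone, at -0.38. The value of SMC4 depended on the probe set, with a dimmer one at -0.44 and the mean of all 3 at 0.11. The NDC80 complex genes stayed closer, with NDC80 at -0.81, SPC25 at -0.81 and NUF2 at -0.49. HMMR, BUB1B, CENPA, INCENP and KNL1 lay between -0.04 and 0.01. This comparison shares an array with each pair and no relation between them was computed.

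**Figure D3:**
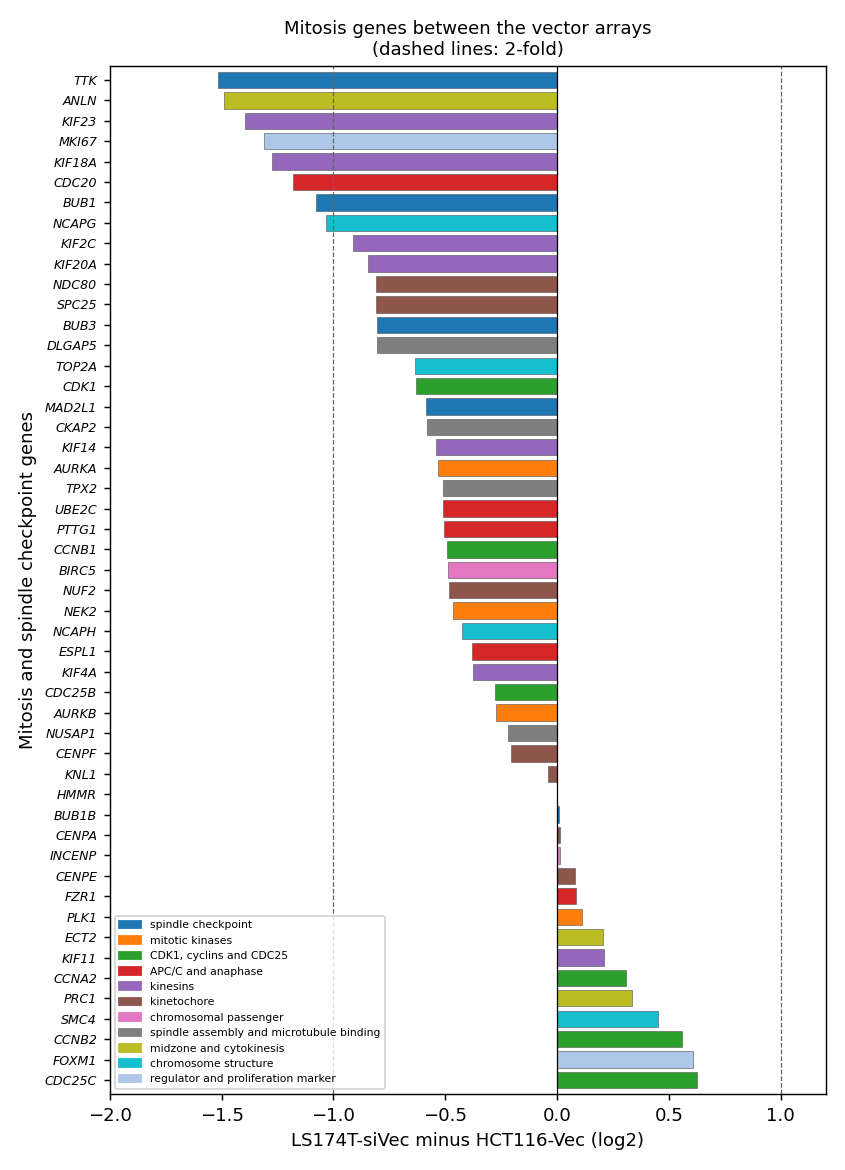
Difference between LS174T-siVec and HCT116-Vec for each of the 50 genes in log2 units, ordered by value and coloured by role; each bar is 1 array minus 1 array, and dashed lines mark 2-fold. The bars run from -1.52 for TTK to 0.63 for CDC25C, with 8 past the lower line and 0 past the upper line.

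Related lists show how far the shift extended through the cell cycle. DNA replication genes had medians close to those of the mitosis genes in both pairs: of 43 measured, 39 lay below 0 on the array labelled HCT116-CDX1, with a median of -0.43 against -0.01 for all genes, and 37 lay above 0 on LS174T-siCDX1, with a median of 0.20. In the HCT116 pair 2 of them fell and 0 rose. POLE2, a subunit gene of DNA polymerase epsilon, was at 9.43 against 10.60, and GMNN, which encodes the licensing inhibitor geminin, at 10.65 against 11.73. In the LS174T pair 0 changed, and POLE2 had the greatest difference, 0.52.

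Other spindle checkpoint and kinetochore genes had medians of -0.30 in the HCT116 pair, with 26 of 32 below 0, and 0.14 in the LS174T pair, with 27 of 32 above 0. In the HCT116 pair 3 fell: MIS18A, which helps to load CENPA, at 9.48 on the array labelled HCT116-CDX1 against 10.76 on HCT116-Vec, its partner OIP5 at 9.23 against 10.30, and CENPW at 9.19 against 10.26. SGO2, the gene of a shugoshin that protects centromeric cohesion, was higher by 0.84 on LS174T-siCDX1, short of 2-fold. Other spindle and cytokinesis genes had 25 of 27 below 0 in the HCT116 pair, with a median of -0.40, and 20 of 27 above 0 in the LS174T pair, with a median of 0.09; 0 passed 2-fold in either. CEP55, an abscission gene, was at -0.90 in the HCT116 pair, and STMN1, the gene of the microtubule destabiliser stathmin, at 0.88 in the LS174T pair.

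The remaining lists had medians nearer 0 than the mitosis genes in both pairs. Subunits of the anaphase-promoting complex and its partners had a median of -0.24 with 14 of 15 below 0 in the HCT116 pair, where CDC26 fell, with 9.34 on the array labelled HCT116-CDX1 against 10.35 on HCT116-Vec. Their median in the LS174T pair was 0.02. Cohesin and other condensin genes had medians of 0.02 and 0.13, with 9 and 12 of 16 above 0, and the first of these was -0.002 with equal array medians. The list of the MYB-MuvB complex, E2F and related factors had medians of -0.02 and 0.04. The first was 0.04 once a loess curve of difference on level was taken out. No gene of these 2 lists passed 2-fold in either pair. In the list of CDK inhibitors and WEE1 kinases CDKN1A, which encodes the inhibitor p21, fell by 1.22 on LS174T-siCDX1, with 10.69 against 11.91 on LS174T-siVec. In the HCT116 pair CDKN1A was at -0.51, and the list medians were -0.06 and 0.09.

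**Figure D4:**
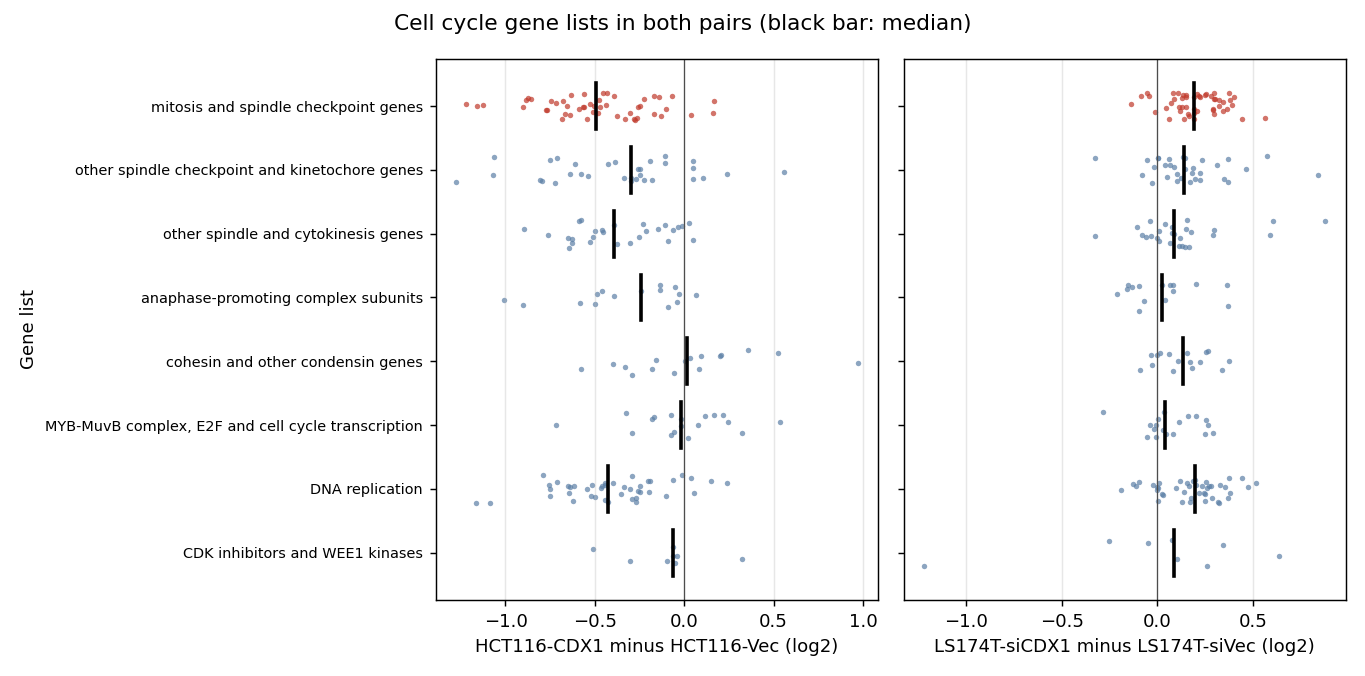
Differences of the mitosis genes (top row, red) and of 7 further cell cycle lists (blue) within the HCT116 pair (left) and the LS174T pair (right), in log2 units; each point is 1 gene and the black bar is the list median. The DNA replication genes, at medians of -0.43 and 0.20, lie nearest to the mitosis genes, at -0.49 and 0.19, while the cohesin and condensin list, at 0.02, and the MYB-MuvB and E2F list, at -0.02, lie near 0 on the left.

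Between the vector arrays the same lists had medians of -0.23 for 43 DNA replication genes, 0.004 for other spindle checkpoint and kinetochore genes, -0.28 for other spindle and cytokinesis genes and -0.45 for the anaphase-promoting complex list. Those of the cohesin and condensin list and the transcription list were -0.12 and 0.16. The medians of the other checkpoint and kinetochore genes and of the cohesin and condensin list had the other sign as means of probe sets. CCNE2, a cyclin gene of the G1 to S transition, was the replication list's lowest gene, at 8.47 on LS174T-siVec against 10.15 on HCT116-Vec. CDKN2A, the gene of the inhibitor p16, was at 7.08 against 9.55, the greatest difference of the inhibitor list.

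All 10 colorectal epithelial markers were at 6 or more on every array. In the HCT116 pair their median difference was 0.16 and 0 of them passed 2-fold. Their mean level was 10.70 on LS174T-siCDX1, against 11.46 on LS174T-siVec. In the LS174T pair 9 of 10 were lower, with a median of -0.63, beside the higher mitosis genes. KRT19, LGALS4 and KRT8, epithelial keratin and galectin genes, fell by 1.69, 1.64 and 1.49; the part of these markers in the result was not tested. Markers of other cell types differed little within the pairs: fibroblast markers averaged 6.77 and 6.70 in the HCT116 pair and 6.76 and 6.71 in the LS174T pair, and endothelial markers 6.86 and 6.83, and 6.85 and 6.82, in the same order. Leukocyte markers averaged 6.73 and 6.72 in the HCT116 pair and 7.58 and 7.43 in the LS174T pair, where the lysozyme gene LYZ, also made by intestinal secretory cells, stood at 11.74 and 11.25. Of those 3 lists LUM, POSTN, CD14, CDH5 and KDR were under 6 on all 4 arrays.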

How the data were processed

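Each of 4 cell lines gave RNA for 1 array, and groups were taken from sample titles. Per the labels' protocols, biotinylated cRNA was made from 2 µg of total RNA. Per the submitters' processing notes the authors used RMA, which subtracts background, equalises arrays and summarises probes; its version and which arrays were normalised together are not given in the sources used here. Deposited values are log2 expression of 54675 probe sets and were used as deposited. Equalised arrays carry no information on total RNA per cell.

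Of the probe sets, 41097 had 1 gene in the platform annotation, 1801 several and 11777 none; 41043 matched RefSeq genes of GRCh38.p14 and 0 symbols changed. The floor of 6 and the 2-fold rule applied to the value read for each gene, unless an alternative is named. Averages of probe sets took in every probe set of a gene, those under 6 included. limma 3.58.1 in R 4.3.3 fitted genes whose brightest array was at least 6, and was tested on simulated data. Other steps used Python 3.11.15, pandas 2.3.3, numpy 2.4.6 and statsmodels 0.14.6.

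The members and lists were chosen with earlier results of these data known. Any of the 50 genes could be named, and up to 4 per further list, by size of difference, beside any others past 2-fold. KRT20 was added after its values were seen. Alternatives were no floor, a floor of 7, levels under 6 set to 6, quantile normalization, equal medians, removal of a loess of difference on level (span 0.3), all probe sets of a gene averaged, omission of those marked as shared (_x_at, _s_at), and 1.5-fold and 3-fold thresholds. The limma fit was repeated with robust moderation, with a trend on intensity and with the cell line left out. Promoter windows came from RefSeq.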

Additional observations from a re-analysis of the deposited data

Results flagged for a closer look

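Arrays with higher CDX1 by label were set against those with lower CDX1. By this measure 4 mitosis genes differed in opposite directions in the 2 lines, by more than the standard deviation of the control probe sets in each pair. This size was set after the values were seen, and no share over all genes was computed at it. The largest size of difference among the control probe sets was 0.35 in the HCT116 pair and 0.17 in the LS174T pair. Only ANLN lay beyond the first and only CDC25C beyond the second, so no gene lay beyond both. The difference between the lines was not tested. At any size, 5 of the 50 mitosis genes were lower in both pairs and 3 higher in both. Among the 16530 genes measured in both pairs these counts were 4628 and 4187. ANLN was at -0.86 in HCT116 (HCT116-CDX1 minus HCT116-Vec) and at 0.13 in LS174T (LS174T-siVec minus LS174T-siCDX1). CDC25B was at -0.17 and 0.0851 in the same order. CDC25C was at 0.17 and -0.32, and SMC4 at 0.16 and -0.0809. As the mean of its probe sets SMC4 was at -0.01 in HCT116, and with quantile normalization CDC25B in LS174T had the other sign.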

How the results depend on the processing

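The median difference of the mitosis genes kept its direction under every alternative run, from -0.51 to -0.42 in the HCT116 pair, from 0.17 to 0.28 in the LS174T pair and from -0.49 to -0.38 between the vector arrays. It moved by more than the control probe sets' standard deviation to 0.28 in the LS174T pair with quantile normalization, and to -0.38 between the vector arrays without shared probe sets, where 39 genes remained; the cause was not tested. Counts past the threshold depended on the probe sets and, by construction, on the fold. In the HCT116 pair the 3 genes that fell became 1 with the mean of probe sets, 1 without shared probe sets, 18 at 1.5-fold and 0 at 3-fold. Between the vector arrays the 8 lower genes became 5 with the mean of probe sets, 4 without shared probe sets, 16 at 1.5-fold and 0 at 3-fold, and the 0 higher genes became 2 at 1.5-fold. The 3 floors moved no value of a mitosis gene, since all lay above 7 in each pair, and equal medians moved none beyond that standard deviation. With quantile normalization 32 of 50 genes of the LS174T pair did so, and 0 in the other comparisons. Over all genes of the HCT116 pair 155 rose and 164 fell, against 164 and 135 with quantile normalization and 178 and 126 after the loess correction. limma called 0 mitosis genes in every setting, with adjusted p of 0.999 to 0.9999 and 1 to 15 genes at an unadjusted p under 0.05. The labels carry no replicate numbers, so the pairing in the limma fit is by cell line; without the cell line term 1 mitosis gene, against 9 with it, had an unadjusted p under 0.05. With 1 array per group, 2-fold calls carry no error rate.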
